A study of Mus musculus with 45 samples.

Results

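The ventricle-specific change from E9.5 to E12.5 in the mouse heart was read as a difference of differences: the change from E9.5 to E12.5 in the left ventricle minus the same change in the right ventricle, gene by gene. Its size rests on 12 of the 45 arrays of the series, 3 for each ventricle at each stage. The other arrays share in each gene's spread, and so in the calls, and in the choice of its probe set. Of 18193 genes tested, 128 (0.704%) differed in their change between the ventricles (limma, Benjamini-Hochberg adjusted p under 0.05). In 50 of them the change was more positive in the left ventricle, and in 78 it was more positive in the right ventricle. Of the 50, 46 were higher in the right ventricle at E9.5, and 33 fell there, among them the signalling genes Tdgf1, Fgf8 and Dkk1 and the early regulator Isl1. Both counts come from the arrays that chose the genes, so they describe the call and do not support it. Among the largest differences toward the right ventricle were the elastic fibre genes Eln and Fbln5. They rose 20.7-fold and 60.9-fold in the right ventricle and 2.33-fold and 4.51-fold in the left, from low array values at E9.5. With the mean of 2 probe sets a gene, their differences of -3.15 and -3.76 (log2) became -1.87 and -1.85. The other probe set thus showed a smaller difference for Eln and little or none for Fbln5.

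The series followed mouse heart development from a stem cell line and early embryos to the adult heart, on Affymetrix whole-genome mouse arrays that read the RNA of a whole tissue piece. The 4 groups used here were left and right ventricles dissected from embryos of the CD1 strain at E9.5 and E12.5, and the labels name no allele or treatment. Each replicate was a pool of 30 to 50 hearts at E9.5 and of 10 to 20 hearts at E12.5. The labels call the 3 replicates of a group biological, and their small number limits the precision of each value. Values are log2 intensities after RMA, so a difference of 1 is a 2-fold difference. They carry no detection call, and over the named probe sets the median of all values was 6.01, so genes well below that level may lie near the background of the array. In tissue pieces, a change in the number of cells of a type and a change in RNA per cell cannot be told apart.

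The left ventricle arises mainly from the first heart field, the early crescent of cardiac progenitors. The right ventricle and the outflow tract are built mainly from the second heart field, whose progenitors are kept growing by FGF, WNT and BMP signals and are marked by the LIM-homeodomain factor ISL1. While the chambers grow, the outflow tract shortens and is remodelled into the bases of the great arteries, and the atrioventricular canal forms the cushions from which valves develop.

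The dissected tissue differed in marker content between the ventricles. The list of 20 measured right ventricle, outflow and second heart field markers had a summed level (log2 of summed intensities) of 13.906 to 13.995 in the right and 13.43 to 13.61 in the left arrays at E9.5. At E12.5 the ranges were 13.72 to 13.88 and 13.55 to 13.63. On the right E9.5 arrays 4 to 5 of the 20 lay below the median of all values, on the left arrays 8. The 12 measured left ventricle and first heart field markers ran the other way, at 15.37 to 15.47 in the left and 14.31 to 14.54 in the right ventricle at E9.5. Both lists went with the labels of the ventricles, and the right pieces at E9.5 held the outflow markers at the higher level. The lists were chosen with earlier results of these data known and hold called genes, so this is no test of the labels. How far the share of outflow tissue in the pieces moves the values below was not tested.

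Arrays numbered 1 at E9.5 stood apart in both ventricles. Their mean over 25 decidua and trophoblast genes was 5.65 in the left and 5.63 in the right ventricle, and 5.01 to 5.03 on the other 4 arrays of that stage. The right one also had a mean of 5.46 over 23 posterior trunk genes, where the other 2 right arrays had 4.42 and 4.38, and 5.35 over 18 foregut, lung and liver genes, against 4.59 and 4.67. On that foregut list the left one was raised less, at 5.13 against 4.73 and 4.62 on the other left arrays. Without both arrays, 74 genes passed (34 toward the left and 40 toward the right ventricle), of which 67 were among the 128. Single arrays also mattered: the count was 79 without the right E9.5 array numbered 1, 85 without the left E9.5 array numbered 2, 83 without the left E12.5 array numbered 1 and 82 without the right E12.5 array numbered 2. With any 1 of the 12 arrays left out in turn, 63 of the 128 genes kept their call every time.

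Both ventricles changed much more than they differed. From E9.5 to E12.5, 5995 genes (33%) changed in the left ventricle and 6019 (33.1%) in the right. Against these, the difference of differences had a median of -0.02 over all genes and a median SE of 0.18, and 1227 genes had an unadjusted p under 0.05. Among the 128 its size ran from 0.45 to 5.24, with a median of 1.13, and 82 reached a 2-fold difference. At the edge of the threshold, Wfikkn1, 2510009E07Rik and Lcp1 had an adjusted p of 0.0479 just inside, and Clvs1 (0.0515), Snap25 (0.0523) and Ndnf (0.0532) lay just outside.

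The 2 changes behind each call combined in several ways. Of the 50 genes toward the left ventricle, 18 fell in the right with no call in the left, 12 fell in both, 3 rose in the left and fell in the right, 9 rose in both and 8 rose in the left alone. Of the 78 toward the right ventricle, 30 rose in both, 27 rose in the right alone, 14 fell in the left alone, 4 fell in both and 3 fell in the left and rose in the right. "Alone" here means that the other ventricle was not called, and the test of the difference is the difference of differences itself.

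**Figure D1:**
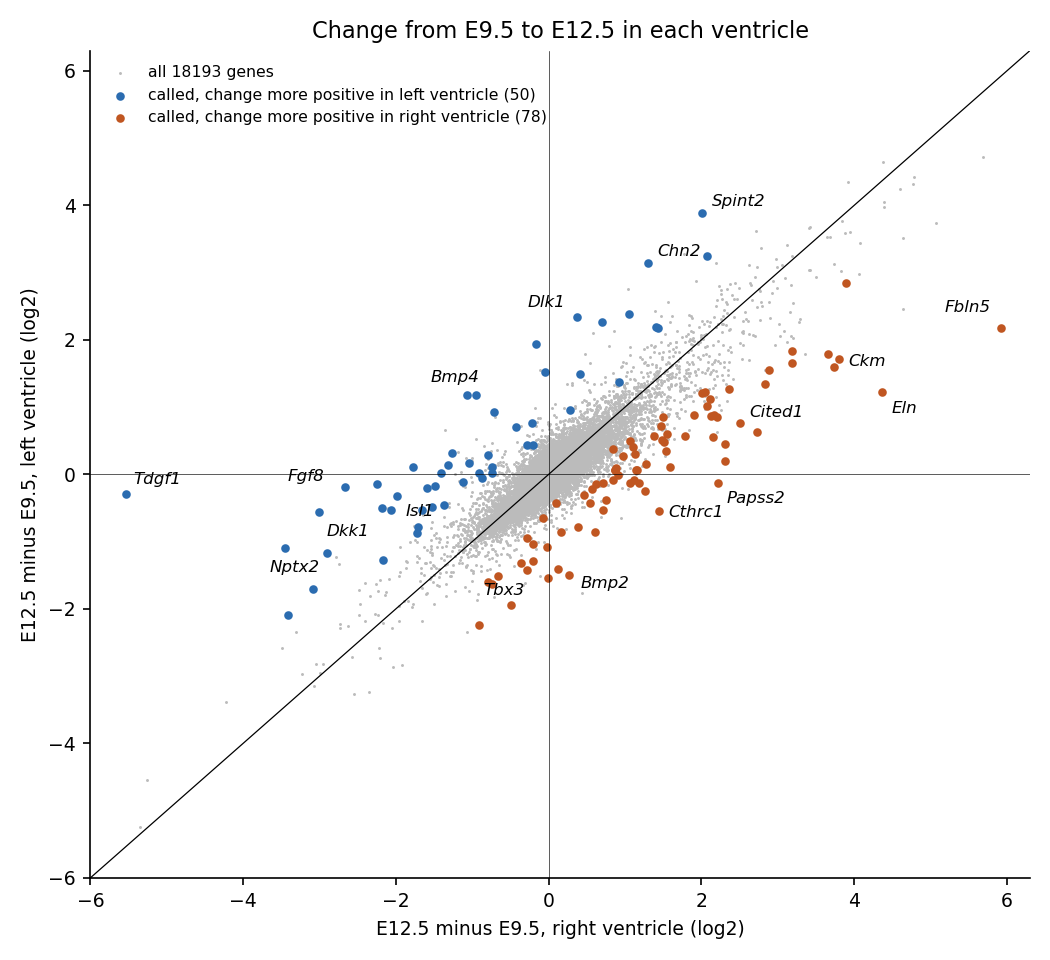
Change from E9.5 to E12.5 (log2) in the right ventricle (x axis) against the left ventricle (y axis), 1 point a gene. The line marks equal change. The 50 genes in blue lie above it, with Tdgf1 farthest left, and the 78 in orange lie below it, with Fbln5 farthest right.

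Several genes of the second heart field and its signals fell in the right ventricle. Tdgf1, which encodes CRIPTO, a co-receptor of the NODAL pathway, had the largest difference of all. At E9.5 it was at 3.69, 3.18 and 3.72 on the left arrays and at 9.40, 7.99 and 8.94 on the right arrays, and at E12.5 at 3.12 to 3.32 on the left and 3.18 to 3.31 on the right. The right E9.5 arrays thus stood alone, and the ventricles overlapped at E12.5. Tdgf1 fell by 5.53 in the right ventricle, a 46.3-fold fall, while its left change was -0.29 (adjusted p = 0.659), and the difference of differences was 5.24 ± 0.61 (SE; limma adjusted p = 8.65e-07). All arrays but the right E9.5 ones were far below the median of all values, so the size of the fall depends on the background of the array.

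Fgf8, a growth factor that second heart field cells need for growth and survival, behaved alike. Its E9.5 values were 4.68, 4.80 and 4.67 in the left and 7.50, 6.91 and 7.03 in the right ventricle, and its E12.5 values were 4.28, 4.45 and 4.85 against 4.30, 4.70 and 4.44. Only the right E9.5 arrays were high, and the ventricles overlapped at E12.5. All other arrays were below the median of all values, so a fall in the left ventricle could be hidden by the array background. The fall of 2.67 in the right ventricle against -0.19 in the left gave 2.47 ± 0.23 (SE; limma adjusted p = 1.09e-08). In the E8.5 heart tube the gene had been at 8.53 ± 0.21 (SD, n = 3), above both ventricles at E9.5.

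Isl1 kept a smaller difference at E12.5. It was at 5.23, 4.93 and 4.54 on the left and 8.2, 7.59 and 7.92 on the right arrays at E9.5, and at 4.58, 4.85 and 4.33 against 6.07, 5.74 and 5.96 at E12.5. The ventricles did not overlap at either stage, and the left arrays were below the median of all values at both. Isl1 fell by 1.98 in the right ventricle, and its difference of differences was 1.67 ± 0.26 (SE; limma adjusted p = 0.000203). At E8.5 it had stood at 8.79 ± 0.19 (SD, n = 3), and at E14.5 the ventricles were no longer called different (left minus right -0.28, limma adjusted p = 0.36).

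Fgf10, a second FGF of these progenitors, was at 4.68, 5.07 and 5.28 on the left and 6.85, 6.97 and 6.96 on the right arrays at E9.5. Its E12.5 values were 4.50, 4.62 and 4.33 against 5.12, 4.73 and 4.72. The right arrays were higher at both stages without overlap, though the E12.5 difference did not pass (limma adjusted p = 0.471). All arrays but the right E9.5 ones were below the median of all values. It fell by 2.07 in the right and by 0.53 in the left ventricle, a difference of 1.54 ± 0.22 (SE; limma adjusted p = 5.69e-05). RefSeq promoter windows (GRCm38.p6, from 250 bases before to 50 after a start) existed for 94 of the 128 genes, 125 windows in all, and were searched on both strands for 4 motifs, none of which holds another. The E-box of HAND factors, spelled CATCTG, was in 15.2% of them and in 13.4% of the 18109 windows of all genes tested. The letters of zinc-finger cardiac factors of the GATA family, spelled here as AGATAAG, were in 6.4% and 2.36%. Those of the NKX family, written TNAAGTG, were in 7.2% and 9.75%, and those of T-box factors, AGGTGTGA, in 1.6% and 1.07%. The 250 bases before the Fgf10 start (chr13:118714449-118714698, plus strand) are shown as one example of a gene that fell in the right ventricle. The capitals mark CATCTG read on the other strand, and such a match is a description of letters, not a bound site.
Fgf10: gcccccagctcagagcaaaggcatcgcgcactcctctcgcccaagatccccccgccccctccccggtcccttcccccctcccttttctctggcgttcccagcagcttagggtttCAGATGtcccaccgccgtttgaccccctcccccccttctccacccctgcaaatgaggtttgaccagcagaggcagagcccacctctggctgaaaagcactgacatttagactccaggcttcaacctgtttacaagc

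Other signalling genes were called in the same direction. Dkk1, a secreted WNT inhibitor, had the smallest p of all genes. At E9.5 it was at 4.58, 5.13 and 4.79 on the left and 7.36, 7.16 and 7.2 on the right arrays, and at E12.5 at 4.18, 4.29 and 4.34 against 4.42, 4.20 and 4.06. Again only the right E9.5 arrays were high, and all others were below the median of all values. It fell in both ventricles, by 3.01 in the right and 0.56 in the left, with a difference of 2.45 ± 0.18 (SE; limma adjusted p = 1.32e-11).

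Bmp4, a BMP ligand of the outflow tract, moved in opposite directions in the ventricles. It was at 7.74, 7.85 and 7.88 on the left and 10.96, 10.84 and 10.84 on the right arrays at E9.5, and at 8.89, 8.92 and 9.20 against 9.82, 9.80 and 10.18 at E12.5. The right arrays were higher at both stages, by 8.31-fold and then by 1.91-fold. Bmp4 rose by 1.18 in the left ventricle and fell by 0.95 in the right, a difference of 2.12 ± 0.19 (SE; limma adjusted p = 6.19e-09). Tril, an accessory protein of Toll-like receptors, did the same at a lower level, with a rise of 1.18 and a fall of 1.06 (limma adjusted p = 1.1e-05).

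The rest of this group differed in how much remained. Nptx2, a neuronal pentraxin, fell by 3.45 in the right and 1.1 in the left ventricle (difference 2.35 ± 0.24 SE; limma adjusted p = 7.95e-08) and overlapped at E12.5. The mean of its 2 probe sets gave 1.48, and its values were below the median of all values except on the right E9.5 arrays. Tnc, the matrix protein tenascin C, was 8.27-fold higher in the right ventricle at E9.5 and 2.23-fold at E12.5, and it fell by 1.78 in the right with 0.11 in the left (difference 1.89 ± 0.32 SE; limma adjusted p = 0.000767). Efhd1, a mitochondrial calcium-binding protein, fell by 2.25 in the right ventricle, and Tlx1, a homeobox gene, by 1.41. Every Efhd1 value in the 4 groups was below the median of all values. The secreted ligand Wnt2 fell by 3.41 in the right and by 2.09 in the left ventricle, and the semaphorin and VEGF receptor Nrp2 fell by 1.52 and 0.48.

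The calls of Wnt2 and Nrp2 were the least steady of these. Their differences of 1.32 and 1.04 had limma adjusted p of 0.0291 and 0.0191, which became 0.259 and 0.242 without both E9.5 arrays numbered 1. Single arrays ended the call of Wnt2 in 9 of 12 leave-outs and that of Nrp2 in 5. With left and right arrays of a number as a block, Nrp2 had an adjusted p of 0.0694.

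**Figure D2:**
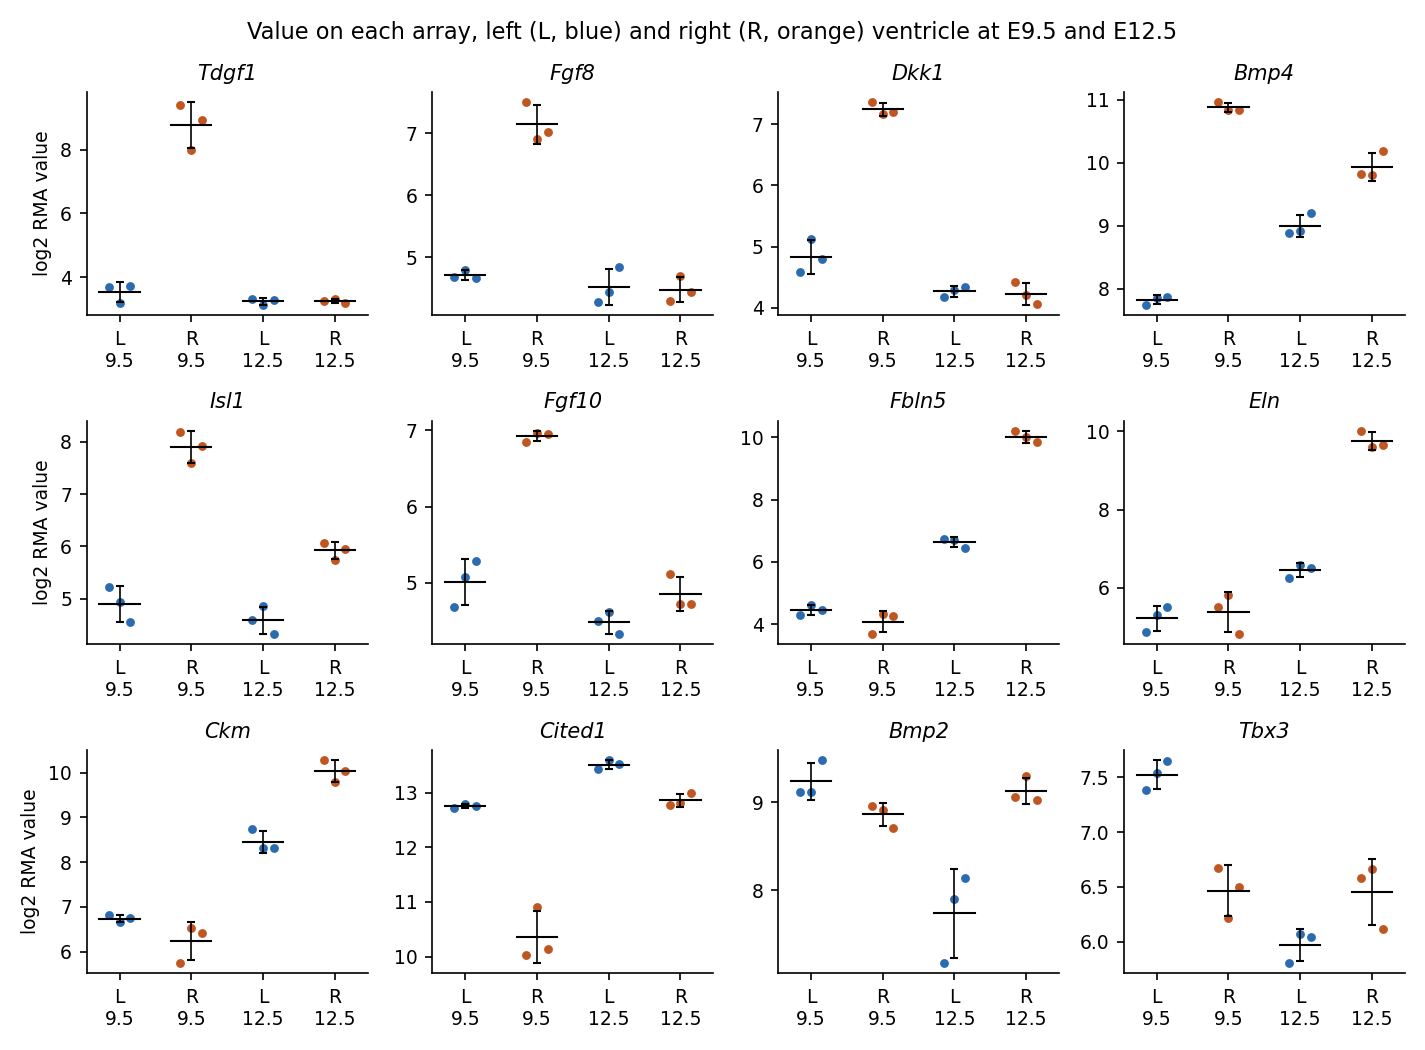
Log2 RMA values on each of the 12 arrays for 12 genes (left ventricle blue, right ventricle orange; bars are group means and SD, n = 3). In the first 6 panels the right arrays at E9.5 stand highest, as for Tdgf1 at 7.99 to 9.40, and in Fbln5, Eln and Ckm the right arrays at E12.5 do.

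Other genes toward the left ventricle rose there. Dlk1, an imprinted gene for a membrane protein related to NOTCH ligands, was at 6.09, 6.22 and 6.37 on the left and 8.39, 8.15 and 8.14 on the right arrays at E9.5. By E12.5 it had reached 8.84, 8.51 and 8.37 against 8.80, 8.44 and 8.55. The left ventricle had been low and came level with the right. Its left rise of 2.34 against 0.37 (adjusted p = 0.0798) in the right gave 1.98 ± 0.23 (SE; limma adjusted p = 8.57e-07), or 1.07 with the mean of its 2 probe sets. The other Dlk1 probe set thus showed little difference. At E14.5 Dlk1 was higher in the left, by 1.33 (limma adjusted p = 2.79e-06). Nts, the precursor of the peptide neurotensin, rose by 1.94 in the left, and its right change was -0.17 (adjusted p = 0.722), with a difference of 2.11 ± 0.42 (SE; limma adjusted p = 0.0043).

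Spint2 and Chn2 ended higher in the left ventricle. Spint2, a Kunitz-type serine protease inhibitor, was at 7.2, 6.66 and 6.80 on the left and 8.22, 7.48 and 7.35 on the right arrays at E9.5, and at 10.97, 10.70 and 10.68 against 9.83, 9.52 and 9.73 at E12.5. The right arrays were higher first and the left arrays later, without overlap. It rose 14.9-fold in the left and 4.04-fold in the right ventricle (difference 1.88 ± 0.22 SE; limma adjusted p = 1.28e-06). Chn2, which encodes beta-chimaerin, a GTPase-activating protein for RAC, was at 4.49 to 4.96 on all 6 arrays at E9.5. By E12.5 it was at 7.95, 7.69 and 7.91 in the left and 6.33, 5.87 and 6.19 in the right ventricle, with no overlap. The difference was 1.84 ± 0.24 (SE; limma adjusted p = 1.1e-05), and the left ventricle was still higher at E14.5, by 1.68 (limma adjusted p = 1.49e-07).

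Elastic fibre genes led the genes toward the right ventricle. Fbln5, the fibulin that helps assemble elastic fibres, was at 4.29, 4.62 and 4.46 on the left and 3.68, 4.31 and 4.25 on the right arrays at E9.5, and at 6.73, 6.70 and 6.45 against 10.20, 10.00 and 9.84 at E12.5. The ventricles overlapped at E9.5 and stood far apart at E12.5. It rose 60.9-fold in the right and 4.51-fold in the left ventricle, a difference of -3.76 ± 0.41 (SE; limma adjusted p = 2.06e-07), or of -1.85 with the mean of its 2 probe sets. The other Fbln5 probe set thus showed little or no difference. Eln, elastin itself, was at 4.87, 5.30 and 5.50 on the left and 5.50, 5.83 and 4.82 on the right arrays at E9.5, and at 6.24, 6.59 and 6.50 against 10.00, 9.60 and 9.65 at E12.5. It too overlapped first and separated later, rising 20.7-fold in the right and 2.33-fold in the left (difference -3.15 ± 0.53 SE; limma adjusted p = 0.000716), and the mean of its 2 probe sets gave -1.87. The other Eln probe set thus showed a smaller difference. All E9.5 values of both genes were below the median of all values, so the size of the rises depends on the array background. At E14.5 left minus right was -0.21 for Fbln5 (limma adjusted p = 0.715) and 0.37 for Eln (limma adjusted p = 0.596).

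Other matrix genes followed in part. Of 32 measured fibroblast and matrix genes, Eln, Fbln5 and Col6a3 passed toward the right and Tnc toward the left. The median difference of the list was -0.44 beside -0.02 over all genes, of which 0.704% were called. Col6a3, a collagen VI chain, rose by 3.18 in the right and 1.65 in the left (limma adjusted p = 0.0116), and 3 of the 12 leave-outs ended its call. Outside the list, Aspn (asporin, a small leucine-rich matrix protein) rose by 3.65 and 1.78, and Papss2, which makes the sulfate donor for proteoglycans, rose by 2.22 in the right with -0.13 in the left. The difference for Papss2 was -2.35, or -1.18 with the mean of its 4 probe sets. Cthrc1, a secreted protein of remodelling tissue, rose by 1.45 in the right, and its left change was -0.54 (adjusted p = 0.14). Without both E9.5 arrays numbered 1 the adjusted p of Aspn was 0.0933. All Aspn values but the right E12.5 ones were below the median of all values, so the size of its rises depends on the array background.

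Matrix and smooth muscle markers were higher in the right ventricle at E12.5. The summed level of the matrix list at E12.5 was 15.80 to 16.00 in the right and 15.45 to 15.56 in the left ventricle, and it includes the called genes themselves. At E9.5 it had been 14.19 to 14.69 and 14.45 to 14.65. The summed level of 17 smooth muscle and pericyte genes was 14.83 to 14.88 in the right and 14.59 to 14.62 in the left ventricle at E12.5, and it was already higher in the right at E9.5, at 15.35 to 15.50 and 15.23 to 15.28. Of the smooth muscle list, Rgs5, a regulator of G-protein signalling found in pericytes and outflow myocardium, was the one called gene. It was 3.49-fold higher in the right ventricle at E9.5 and 7.64-fold at E12.5, since it fell by 1.42 in the left with -0.28 in the right (difference -1.13 ± 0.18 SE; limma adjusted p = 0.000329). The part of these cells in the matrix result was not tested.

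Called genes of the atrioventricular canal split. Bmp2, the BMP ligand that induces the cushions, was at 9.11, 9.12 and 9.48 on the left and 8.96, 8.91 and 8.71 on the right arrays at E9.5, and at 7.18, 7.90 and 8.14 against 9.06, 9.29 and 9.03 at E12.5. The left arrays were the higher ones first, though without a call (adjusted p = 0.558), and the lower ones later. Bmp2 fell by 1.49 in the left ventricle, and its right change was 0.27 (adjusted p = 0.423). The difference was -1.76 ± 0.33 (SE; limma adjusted p = 0.00222). It stayed higher in the right ventricle at E14.5, with left minus right at -1.1 on the log2 scale (limma adjusted p = 0.00288).

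Tbx3, a T-box repressor of chamber genes in the conduction system, was at 7.38, 7.54 and 7.65 on the left and 6.68, 6.22 and 6.50 on the right arrays at E9.5. At E12.5 it was at 5.81, 6.08 and 6.04 against 6.58, 6.67 and 6.12. The order of the ventricles turned, without a call at E12.5 (limma adjusted p = 0.579). Tbx3 fell by 1.55 in the left ventricle with -0.01 in the right, a difference of -1.54 ± 0.32 (SE; limma adjusted p = 0.00853), and with the mean of its 5 probe sets it was -0.58 (adjusted p = 0.108). In the list of 21 measured canal and cushion genes these 2 passed toward the right and Bmp4 toward the left. Its median was -0.65, beside -0.02 over all genes, of which 0.704% were called. The summed level of that list was 14.12 to 14.22 in the right and 13.19 to 13.46 in the left ventricle at E12.5, and 13.97 to 14.16 against 13.47 to 13.59 at E9.5.

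**Figure D3:**
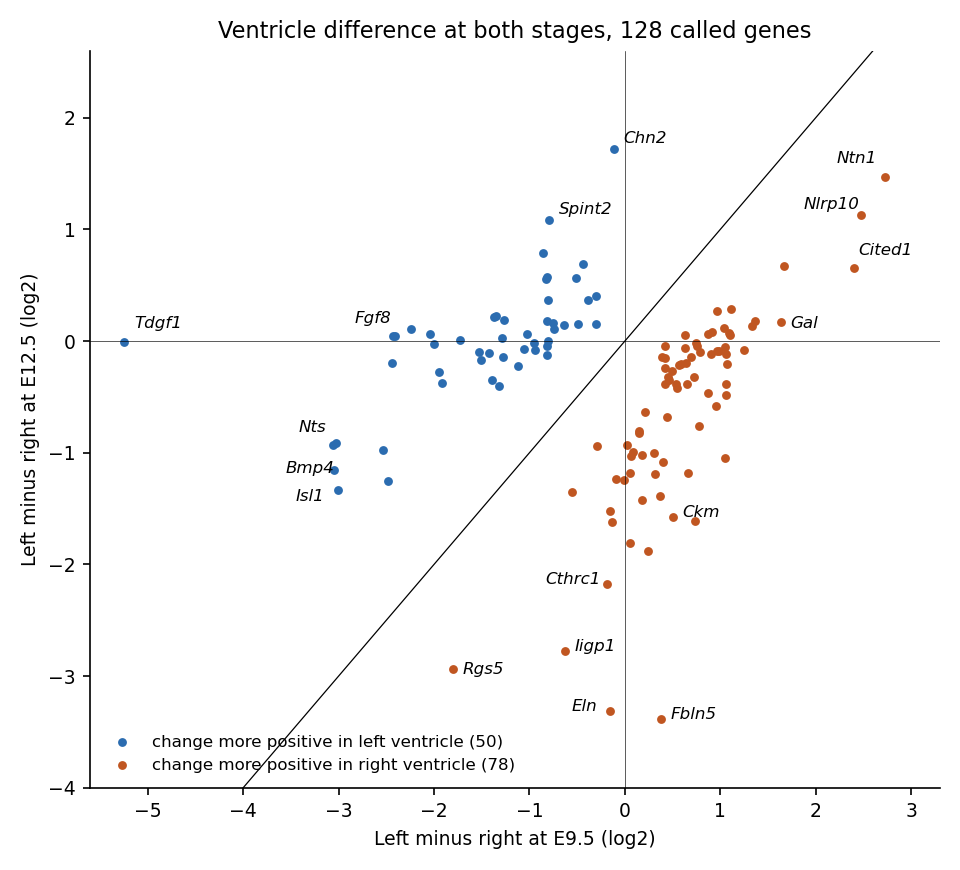
Left minus right (log2) at E9.5 (x axis) against E12.5 (y axis) for the 128 called genes; the line marks an unchanged difference. Blue genes lie mostly to the left of 0 at E9.5 and near 0 at E12.5, while Eln and Fbln5 (orange) lie near 0 at E9.5 and at -3.31 and -3.38 at E12.5.

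The ventricle differences at each stage show the same pattern in counts. Left and right differed in 637 genes (3.5%) at E9.5 and in 230 (1.26%) at E12.5. Of the 50 genes toward the left ventricle, 46 were higher in the right at E9.5, and 38 of these had no call at E12.5, 5 were still higher in the right and 3 had become higher in the left. Of the 78 toward the right ventricle, 46 were higher in the left at E9.5, 42 of which had no call at E12.5, and 28 had no call at E9.5 and were higher in the right at E12.5. These calls share arrays with the one that chose the genes, so they describe it and do not support it.

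Some muscle genes rose more in the right ventricle. Ckm, muscle creatine kinase, was at 6.81, 6.66 and 6.74 on the left and 5.75, 6.53 and 6.42 on the right arrays at E9.5, and at 8.73, 8.32 and 8.31 against 10.28, 9.79 and 10.03 at E12.5. The left arrays were higher at E9.5, without a call (adjusted p = 0.072), and the right arrays were higher at E12.5. Ckm rose 13.9-fold in the right and 3.29-fold in the left ventricle, a difference of -2.08 ± 0.22 (SE; limma adjusted p = 1.79e-07), or of -1.12 with the mean of its 2 probe sets. The other Ckm probe set thus showed little difference.

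Cited1, a transcriptional coactivator of left ventricular and trabecular muscle, was at 12.73, 12.80 and 12.75 on the left and 10.04, 10.91 and 10.13 on the right arrays at E9.5. At E12.5 it was at 13.43, 13.59 and 13.53 against 12.77, 12.82 and 13. The left arrays were higher at both stages, 5.27-fold and then 1.57-fold, the second without a call (adjusted p = 0.0808). It rose in both ventricles, and its difference was -1.75 ± 0.26 (SE; limma adjusted p = 9.59e-05).

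Tnni3, the mature cardiac troponin I, and Gja1, the gap junction protein connexin 43, had a similar course at high levels. Tnni3 was at 12.75, 12.71 and 12.79 on the left and 11.66, 11.92 and 11.77 on the right arrays at E9.5, and at 13.18, 13.21 and 13.06 against 12.87, 12.95 and 12.84 at E12.5. The gap shrank and the arrays still did not overlap. The differences were -0.70 ± 0.13 for Tnni3 (SE; limma adjusted p = 0.00276) and -0.82 ± 0.14 for Gja1 (SE; limma adjusted p = 0.000767). Tnni3 was the one gene of 30 measured sarcomere and Z-disc genes and Gja1 the one of 28 calcium handling and channel genes to pass. The list medians were -0.10 and -0.11, beside -0.02 over all genes, of which 0.704% were called. Tnni3 and Clec4g were the called genes with AGGTGTGA in a promoter window. The 250 bases before the Tnni3 start (chr7:4522529-4522778, minus strand, GRCm38.p6) are printed because it is a muscle gene of the set, with these T-box letters in capitals.
Tnni3: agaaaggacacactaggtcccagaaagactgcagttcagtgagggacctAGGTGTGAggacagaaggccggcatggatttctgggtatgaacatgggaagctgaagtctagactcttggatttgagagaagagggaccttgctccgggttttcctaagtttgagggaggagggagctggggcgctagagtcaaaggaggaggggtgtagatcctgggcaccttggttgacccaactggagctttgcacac

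A few genes of glucose use and low oxygen changed more positively in the right ventricle. Of 32 measured genes of glycolysis and the low-oxygen response, Egln3, Slc2a1 and Aldoc passed in that direction and none in the other. The list median was -0.27, beside -0.02 over all genes, of which 0.704% were called. Egln3, an oxygen-dependent prolyl hydroxylase that is itself a target of hypoxia-inducible factors, was at 7.39, 7.53 and 7.48 on the left and 7.08, 7.15 and 7.26 on the right arrays at E9.5. At E12.5 it was at 7.40, 7.21 and 7.41 against 8.34, 8.16 and 8.53. The right arrays were the lower ones at E9.5 and the higher ones at E12.5. Egln3 rose by 1.18 in the right with -0.12 in the left (difference -1.30 ± 0.16 SE; limma adjusted p = 3.16e-06), and it was still higher in the right at E14.5 (left minus right -0.72, limma adjusted p = 0.000191).

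The glucose transporter Slc2a1 fell in both ventricles, by 1.51 in the left and 0.67 in the right, with a difference of -0.85 ± 0.17 (SE; limma adjusted p = 0.00586). Aldoc, aldolase C, rose by 1.38 in the right and 0.57 in the left (limma adjusted p = 0.0101). Its call ended without the left E12.5 array numbered 2 (adjusted p = 0.0512) and with the mean of its 2 probe sets (difference -0.81 reduced to -0.36, adjusted p = 0.412). The window before the Egln3 start (chr12:54203875-54204124, minus strand, GRCm38.p6) is printed as the gene of this list with the smallest p, and its capitals again mark CATCTG on the other strand.
Egln3: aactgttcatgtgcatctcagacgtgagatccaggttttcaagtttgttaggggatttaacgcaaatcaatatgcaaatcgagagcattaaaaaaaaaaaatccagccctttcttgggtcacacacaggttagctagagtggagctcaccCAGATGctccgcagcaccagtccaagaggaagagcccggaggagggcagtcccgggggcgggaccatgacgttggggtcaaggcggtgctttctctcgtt

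Called guidance and endothelial genes went both ways, while the median of each list lay toward the right ventricle. Of 36 measured guidance and adhesion genes, Robo1, Ntn1 and Epha3 passed toward the right and Cxcl12 and Nrp2 toward the left. The list median was -0.135, beside -0.02 over all genes, of which 0.704% were called. Ntn1, the secreted guidance cue netrin 1, was 6.6-fold higher in the left ventricle at E9.5 and 2.77-fold at E12.5 (difference -1.25 ± 0.31 SE; limma adjusted p = 0.0426). Robo1, a receptor for SLIT proteins, rose by 1.26 in the right with -0.25 in the left (limma adjusted p = 0.0417), and the chemokine Cxcl12 rose by 3.26 in the left and 2.08 in the right (limma adjusted p = 0.0261). These calls were not steady: 10 of 12 leave-outs ended that of Robo1, 8 that of Ntn1 and 6 that of Cxcl12, and without both E9.5 arrays numbered 1 their adjusted p were 0.138, 0.153 and 0.135. The block gave 0.074 for Robo1, and the mean of probe sets gave 0.183 for Ntn1. That mean also reduced the difference from -1.51 to -0.68 for Robo1 and from -1.25 to -0.76 for Ntn1.

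Among 29 endocardial and endothelial genes, Npr3, the clearance receptor of natriuretic peptides and an endocardial marker, passed toward the right, and Cytl1, a small secreted protein, toward the left. Npr3 rose by 1.54 in the right with 0.35 in the left (limma adjusted p = 0.0217), and Cytl1 rose by 1.52 in the left with -0.05 in the right (limma adjusted p = 0.0101). Without both E9.5 arrays numbered 1 their adjusted p were 0.133 and 0.0788. Single leave-outs ended the call of Npr3 in 4 of 12 cases. The list median was -0.45, beside -0.02 over all genes, of which 0.704% were called. Only 2 of the 29 differences were above 0, beside 8349 of 18193 over all genes. The summed level of the list was 13.51 to 13.77 in the right and 13.955 to 13.992 in the left ventricle at E9.5. At E12.5 it was 14.10 to 14.13 and 13.96 to 14, and its part in these results was not tested.

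Many cardiac regulators and chamber genes did not pass the test of a different change. Hand1, a bHLH factor of the left ventricle, was higher there by 0.67 at E9.5 and 0.68 at E12.5, a difference of 0.005 ± 0.18 (SE; limma adjusted p = 1). Tbx5, the T-box factor of the first heart field, was higher in the left by 1.41 and then 0.86 (difference -0.54 ± 0.19 SE; limma adjusted p = 0.341). Hand2, Tbx20, Tbx2, Irx4, Hey2, Gja5 and Sema3c also did not pass, with differences from -0.50 for Sema3c to 0.53 for Gja5. Wnt11 had 0.71 ± 0.26 (limma adjusted p = 0.398), Cck 0.72 ± 0.22 (0.157) and Bmp10 -0.77 ± 0.21 (0.106), and Bmp10 passed when only the 12 arrays were fitted (0.0126).

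The natriuretic peptide genes and myosin light chains gave no call either. Nppa was at -0.32 ± 0.69, Nppb at -0.23 ± 0.59, Myl2 at -0.09 ± 0.09 and Myl7 at -0.24 ± 1.04 (SE; limma adjusted p = 1 for each). The SE of Myl7 is set by the spread in other groups of the 45 arrays, since within the 4 groups Myl7 had SDs of 0.02 to 0.11. The spread in all 15 groups enters the SE of Nppa and Nppb as well. A missed threshold does not show that these genes changed alike. Of 32 measured genes of the cardiac transcription factor list, which does not hold the called gene Isl1, only Tbx3 passed. No gene of the atrial (14), compact myocardium (11), Notch (19), retinoic acid (16) or epicardium (21) lists did. The leukocyte (25), red cell (18), cell cycle (37), DNA replication (35), electron transport (34) and fatty acid (25) lists had none either. Without calls, 2 of these lists were still one-sided. The atrial list had a median of -0.43 with 1 of 14 differences above 0, and the red cell list 0.37 with 17 of 18. Over all genes 8349 of 18193 were above 0. How far atrial tissue or blood in the pieces enters these values was not tested.

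All list calls, above and below, stand beside 0.704% called among all genes tested and a median of -0.02. Of 20 measured right ventricle, outflow and second heart field genes, Fgf8, Bmp4, Isl1 and Fgf10 passed toward the left and Rgs5 toward the right, with a median of 0.25. Of 12 left ventricle and first heart field genes, Cited1 passed toward the right, with a median of -0.20. In the trabecular list (13) Cited1 and the growth factor Nrg1 passed toward the right. Nrg1 had -0.83 ± 0.20 (SE; limma adjusted p = 0.0299), lost without both E9.5 arrays numbered 1 (0.165), with the block (0.074), with only the 12 arrays (0.0553) and in 8 of 12 leave-outs. In the Wnt list (32) Dkk1 and Wnt2 passed, in the FGF, neuregulin and IGF list (36) Fgf8, Fgf10 and Nrg1, in the BMP and TGF-beta list (27) Bmp4 and Bmp2, in the immediate early list (26) Klf4, in the imprinted list (19) Dlk1 and in the pharyngeal list (19) Tlx1.

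Lists for tissue from outside the heart had 1 called member at most. In the posterior trunk list (23) Osr1, a zinc-finger factor also found in cardiac progenitors of the posterior field, passed toward the right at -1.48 ± 0.37 (SE; limma adjusted p = 0.0479), and 11 of 12 leave-outs ended that call. The block gave 0.0703. In the decidua and trophoblast list (25) the called member was Bmp2, described above, and its adjusted p was 0.00842 without both E9.5 arrays numbered 1. The neural crest (18), foregut (18), megakaryocyte (10), oncofetal (7), sex-linked (4) and housekeeping (23) lists had none.

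**Figure D4:**
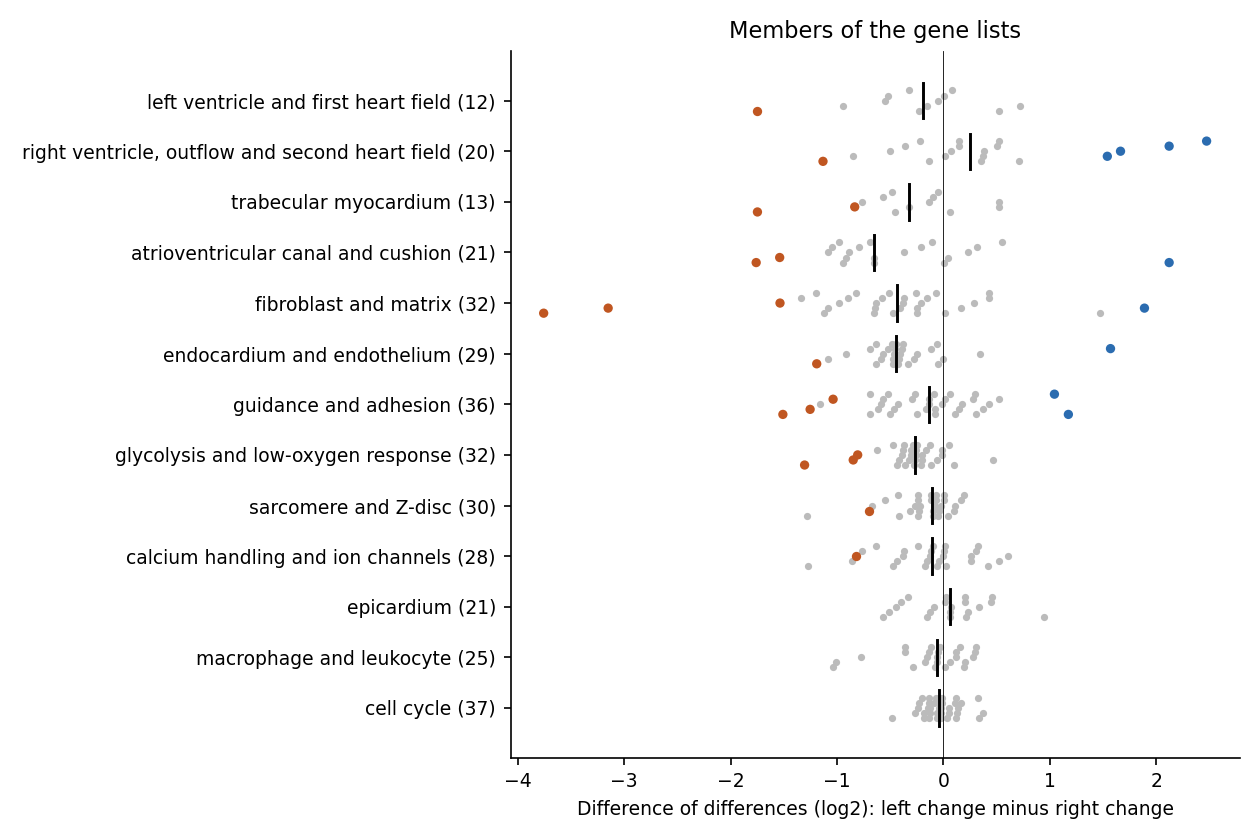
Difference of differences (log2; left change minus right change) of each measured member of 13 gene lists, with list sizes in brackets. Grey points were not called, coloured points were, and black bars are list medians, from -0.65 for the canal and cushion list to 0.25 for the outflow list.

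Later stages showed part of the E12.5 differences again. Their arrays do not enter the difference of differences itself. They do share in each gene's spread and in the choice of its probe set, so they are not independent of the calls. Left and right differed in 1548 genes (8.51%) at E14.5 and in 900 (4.95%) at E18.5, and in 1 gene at day 3 after birth and 3 in the adult. Of 44 called genes that also differed between the ventricles at E12.5, 17 differed the same way at E14.5 and 2 the opposite way. At E18.5, 9 differed the same way and 1 the opposite way, and 6 held at both stages. Dcpp1, a secreted gland protein, was among those that kept their direction: it was 1.88 lower in the left ventricle at E12.5 and 2.91 lower at E14.5 on the log2 scale (limma adjusted p = 3.39e-09). The 2 that turned by E14.5 were Tnc, with left minus right at 0.78 (limma adjusted p = 0.0279) after -1.16, and Osr1, with 0.88 (limma adjusted p = 0.0315) after -1.62.

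**Figure D5:**
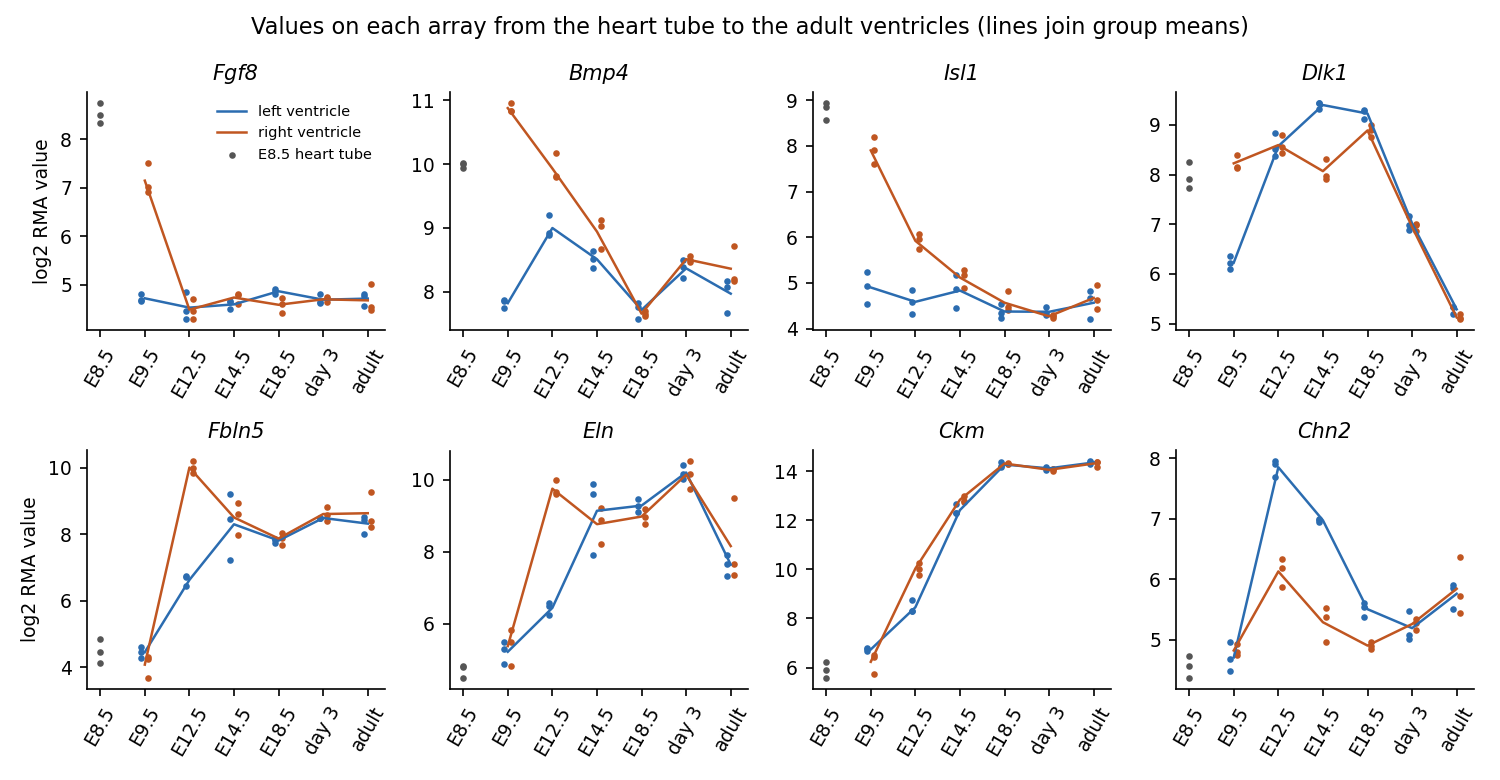
Log2 RMA values on each array for 8 genes from the E8.5 heart tube (grey) through the left (blue) and right (orange) ventricles to the adult; lines join means of 3 arrays. Fgf8, Bmp4 and Isl1 start apart and converge, Fbln5, Eln and Ckm separate at E12.5 and meet by E14.5 to E18.5, and Chn2 is higher in the left ventricle at E12.5 and E14.5.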

How the data were processed

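The authors deposited log2 expression values, which per the submitters' processing notes came from RMA (background correction, quantile normalization and probe set summary; version not given in the sources used here). Quantile normalization gives every array the same distribution of values, so a global shift cannot be seen. RNA was taken from pooled hearts and biotin-labelled, per the labels' protocols.

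Of 45101 probe sets, 34945 carry 1 gene symbol in the platform annotation. Symbols were updated through RefSeq (GRCm38.p6) for 34741 of them, and each of 18193 genes was read from its brightest probe set, by mean over 45 arrays. limma 3.58.1 (R 4.3.3) was fitted to 15 groups with 30 residual degrees of freedom, so groups outside the comparison share in each gene's spread. Tests are two-sided, with Benjamini-Hochberg adjustment over all genes and a threshold of 0.05. The model was run on simulated data with independent noise on each array. That run does not cover any likeness of arrays that share a replicate number. Fold changes are powers of 2 of log2 differences.

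Named genes are the 6 smallest p, the 12 largest differences in each direction among called genes whose ventricles do not overlap at a stage, a list of cardiac genes, and up to 4 called members, or otherwise the member with the smallest p, of each described list. The members and the 37 lists were chosen with earlier results of these data known. Alternatives were the 12 arrays alone, a replicate block, trended and robust variance, a filter on dim genes, other probe set rules, housekeeping scaling and leaving out arrays. Python 3.11.15, pandas 2.3.3 and Matplotlib 3.10.9 made tables and plots.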

Additional observations from a re-analysis of the deposited data

Results flagged for a closer look

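The change from E9.5 to E12.5 differed between the ventricles, by the test of that difference, in both directions: 50 genes with a more positive change in the left ventricle and 78 with a more positive change in the right (limma, adjusted p under 0.05). In 6 of these genes the ventricles moved in opposite directions with both changes called. Bmp4, Tril and Cracdl rose in the left and fell in the right ventricle, with differences of 2.12, 2.25 and 1.65 on the log2 scale. Gal (the neuropeptide galanin), Eya4 (a transcriptional coactivator and phosphatase) and Adgrg2 (an adhesion G-protein-coupled receptor) fell in the left and rose in the right, with differences of -1.47, -1.23 and -0.97. All 6 kept their call in each of the 12 fits that left out 1 array.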

How the results depend on the processing

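The 128 calls became 250 when only the 12 arrays were fitted (111 shared), 74 without both E9.5 arrays numbered 1 (67 shared), 64 at an adjusted p under 0.01 and 82 with a 2-fold minimum. Leaving out 1 array gave 79 to 130. Left against right at E9.5, 637 genes, became 1036 with the 12 arrays, 301 without both arrays numbered 1, and 357 to 745 with 1 array left out (397 without left array 2, 357 without right array 1). At E12.5, 230 became 472 with the 12 arrays and 129 to 235 with 1 left out (129 without left array 1). Replicate numbers are shared by left and right arrays, and deviations of same-numbered arrays correlated at 0.26, 0.32 and 0.07 at E9.5 and 0.27, 0.32 and 0.37 at E12.5, so the pairing is a hint from the data and not from the labels. Over all genes each array correlated best with its own number, but over brighter genes the right E9.5 array 3 did so with left array 1 (0.09, and 0.02 with left array 3). With that block 159 genes passed (102 shared), with 2 for day 3 (1 without) and 7 for the adult (3 without). No other count moved by over 1.5 times. Housekeeping scaling raised the share of rises among changed genes from 51% to 64.1% in the left and from 54.9% to 67.3% in the right ventricle, and the median change of all genes from 0.04 to 0.12 in each, and left that of the difference of differences at -0.02. No named call turned its direction in any alternative. Of 45 named called genes, 10 lost the call without both arrays numbered 1, 10 in at least 1 leave-out, 4 with the block, 3 with the mean of probe sets and 1 each with the 12 arrays, housekeeping scaling and trended variance.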

Other observations

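Some called genes outside the lists are known from the response to interferon and nucleic acids, and they went both ways. Iigp1, an interferon-inducible GTPase, rose by 3.74 in the right and 1.59 in the left ventricle (difference -2.15 ± 0.31 SE; limma adjusted p = 5.69e-05). At E12.5 it was at 8.92, 8.97 and 8.86 on the right and 5.89, 6.31 and 6.22 on the left arrays, at E14.5 it was still higher in the right (left minus right -0.69, limma adjusted p = 0.0432), and at E18.5 it was higher in the left by 1.00 (limma adjusted p = 0.00629). Aim2, a sensor of cytosolic DNA, and Ifitm3, an interferon-induced membrane protein, had differences of -0.93 and -0.81, while Ifih1, a sensor of viral RNA, had 0.93. The last 2 calls were each lost in 10 of the 12 fits that left out 1 array. These genes were picked out after their values were seen.

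Other called genes outside the lists, also picked out after their values were seen, have known roles in nerve cells. Negr1, an adhesion protein of neurons, rose by 2.30 in the right ventricle with 0.45 in the left (limma adjusted p = 0.00982; 0.0933 without both E9.5 arrays numbered 1). Every Negr1 value in the groups compared was below the median of all values. Gria1, a glutamate receptor subunit, and Rtn1, a reticulon, had differences of -0.95 and -1.13, and Gabra4, a GABA receptor subunit, had 1.22. Leaving out 1 array ended the call of Gria1 in 8 of 12 fits and that of Gabra4 in 7. None of the 18 measured genes of the neural crest, nerve and glia list was called. Of the 128 genes, 70 had several probe sets. In 17 of them a probe set had the opposite sign, in none was one called the opposite way, and in 27 at least 2 were called the same way.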
